A study of Homo sapiens with 6 samples.

Results

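Glutathione S-transferases were described by 10 genes, GSTP1, GSTM1, GSTM2, GSTM3, GSTM4, GSTA4, GSTO1, MGST1, MGST2 and MGST3, chosen by name from the 60612 genes of the deposited table. Each of the 10 matched 1 row, and each passed the filter on low values, which asked for 0.5 FPKM or more in 3 or more libraries. FPKM divides a gene's fragments by transcript length and by the size of the library, so levels can be compared between genes. The libraries came from ARPE-19, an established human cell line of retinal pigment epithelium. Cells were transfected with miR-204-5p in 3 libraries and with the control miR-NC in the other 3. The labels used here state neither dose nor time after transfection, nor what the control is. The replicates are described as biological by the submitters. Estimated depth was 19000000 to 21700000 read pairs with miR-204-5p and 20800000 to 23400000 with miR-NC. Replicate 3 of miR-204-5p stood apart in RN7SK, a small nuclear RNA, with 361 FPKM where the other libraries held 5.24 to 14.5 FPKM. In bulk RNA such as this, fewer cells with a transcript and less of it per cell cannot be told apart.

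Glutathione S-transferases join the tripeptide glutathione to reactive, electrophilic molecules, which makes these less toxic and easier to export. The cytosolic enzymes fall into classes named by Greek letters (here pi, mu, alpha and omega). The microsomal enzymes (MGST) are an unrelated family that sits in membranes. The pigment epithelium takes up the lipid-rich tips of photoreceptor outer segments under strong light and oxygen, and the aldehydes of oxidized lipids are substrates of several of these enzymes. A microRNA binds transcripts by its seed, bases 2 to 8, and lowers their level or their translation. The series title places miR-204-5p in oxidative stress, so the comparison asks whether these detoxification transcripts differed after its transfection.

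No member passed the test between the groups. Of the 10 members 0 had an adjusted p under 0.05 (limma on log2(FPKM + 1), Benjamini-Hochberg over all 13151 tested genes), as did 0% of all tested genes. At an unadjusted p under 0.05 there were 0 of 10 members, beside 2.08% of all tested genes (1.16% with a positive and 0.92% with a negative fold change). The log2 fold change, miR-204-5p over miR-NC, was positive in 5 members and negative in 5, with a median of 0.02, where all tested genes had a median of -0.02 and 46.9% were positive. Apart from MGST2 and GSTM4, the difference between the group means of each member was smaller than the larger of the SDs within the groups.

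The mature sequence of miR-204-5p is shown with its seed in capitals, because the matches searched in the members are its complement. It is taken from RefSeq (GRCh38.p14, chr9:70810031-70810052, minus strand).
hsa-miR-204-5p: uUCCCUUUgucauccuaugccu
The classes searched, on the transcript strand, were the 8mer AAAGGGAA, the 7mer-m8 AAAGGGA, the 7mer-A1 AAGGGAA and the 6mer AAGGGA, each match being counted once in its longest class. In the longest 3' UTR annotated in GENCODE release 29 (GRCh38), 3 members held a match and 7 held none. Of all 10825 tested genes with such a UTR, 39.8% held a match of any class and 8.66% an 8mer.

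GSTM3 held the most matches, with 2 8mers and 2 6mers in a 3' UTR of 3139 bases, the one of its principal transcript. Of 1551 tested genes with a UTR of 0.8 to 1.25 times that length, 14.5% held an 8mer. The sites of GSTM3 are printed with the match in capitals because they are the only 8mers among the members (chromosome 1, minus strand, GRCh38).
GSTM3 8mer, chr1:109736929-109736936: tataaaggctaAAAGGGAAaaaggatatgt
GSTM3 8mer, chr1:109734507-109734514: ccagaaatcaaAAAGGGAAtgcattattta
The 8mers begin at bases 135 and 2557 after the stop codon, and the 6mers at bases 2610 and 2650. GSTM2 held 1 7mer-m8 and GSTM4 1 6mer, each in a long alternative isoform, and the principal transcripts of both held none. The GSTM2 match lies inside the annotated span of GSTM1.
GSTM2 7mer-m8, chr1:109708610-109708616: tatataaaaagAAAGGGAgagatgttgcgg
GSTM4 6mer, chr1:109660144-109660149: cactacccatcAAGGGAtctggttactcag
A match is a description of the letters and does not show binding.

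**Figure D1:**
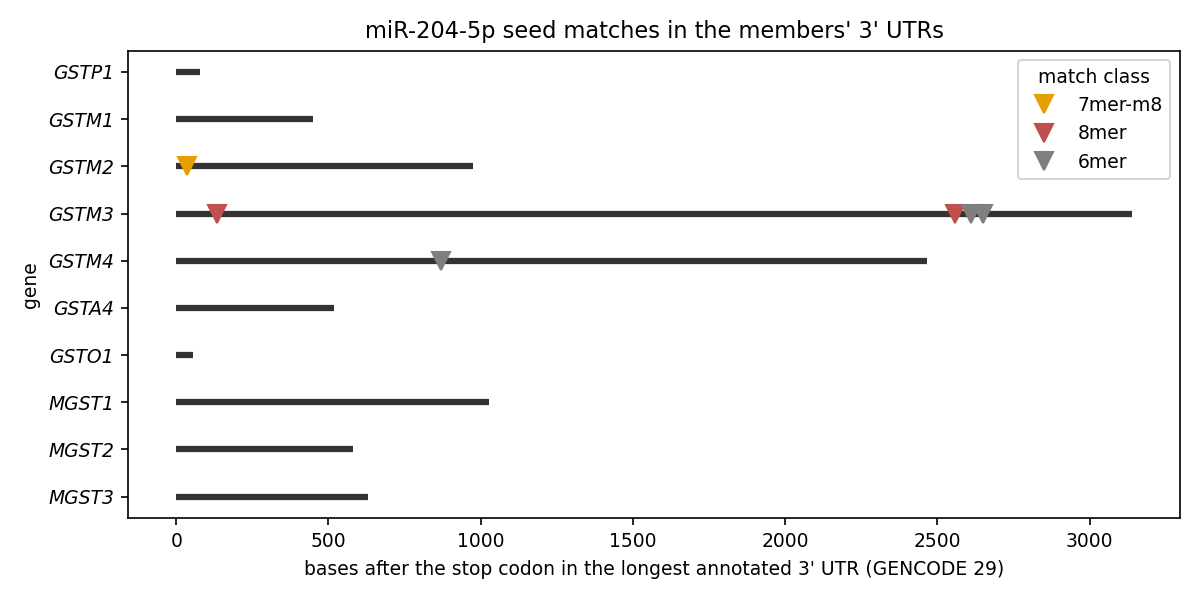
Longest annotated 3' UTR of each member (bar, in bases after the stop codon) with matches to the miR-204-5p seed as triangles coloured by class. GSTM3 carries both 8mers, at bases 135 and 2557, and the short UTRs of GSTP1 (79 bases) and GSTO1 (54 bases) carry no match.

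GSTM3 (chr1:109733932-109741038, minus strand, GRCh38), a mu-class enzyme, was not lower by more than its spread. It stood at 10.2, 9.60 and 13.1 FPKM in miR-204-5p replicates 1, 2 and 3, against 9.91, 10.8 and 14.0 FPKM in miR-NC replicates 1, 2 and 3. The groups overlapped, and replicate 3 was the highest library of each. Its log2 fold change was -0.07 with 95% limits of -0.54 to 0.40 (limma), with 0.02 when miR-204-5p replicate 2 was left out and 0.067 when miR-NC replicate 3 was. As folds of FPKM + 1 these limits are 0.689 and 1.32.

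The pi-class enzyme GSTP1 (chr11:67583595-67586656, plus strand) was the most abundant member and ranked between 81 and 103 among all genes of a library. GSTP1 conjugates a wide range of electrophiles and is known as a binding protein for the macular pigment zeaxanthin in the human retina. It stood at 468, 366 and 434 FPKM in miR-204-5p replicates 1 to 3, against 343, 346 and 506 FPKM in miR-NC replicates 1 to 3. The highest value and the lowest both came from miR-NC libraries, so the groups overlapped. Group means were 423 ± 52.0 FPKM with miR-204-5p and 398 ± 93.5 FPKM with miR-NC (SD, n = 3 each), a ratio of 1.06. This gave a log2 fold change of 0.10 (95% limits -0.41 to 0.62, limma adjusted p = 1.00). It was 0.29 without miR-NC replicate 3, 0.0077 without miR-NC replicate 1, and -0.052 with quantile normalization.

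GSTO1 (chr10:104235356-104267459, plus strand), an omega-class enzyme, reduces disulfides and dehydroascorbate rather than conjugating most electrophiles. It stood at 161, 114 and 179 FPKM in miR-204-5p replicates 1 to 3, against 121, 103 and 169 FPKM in miR-NC replicates 1 to 3. In each group replicate 3 was the highest and replicate 2 the lowest. The log2 fold change of 0.21 had 95% limits of -0.40 to 0.82, the highest upper limit among the members, which as a fold is 1.76. It was 0.05 without miR-NC replicate 2 and 0.40 without miR-NC replicate 3.

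GSTP1 and GSTO1 made up most of the family's transcripts. Together they held 88.1% to 90.7% of the summed FPKM of the 10 members in miR-204-5p libraries and 87.3% to 89.2% in miR-NC libraries. The summed FPKM of the members was 644 ± 87.2 with miR-204-5p and 600 ± 136 with miR-NC (SD, n = 3 each). The sum of the other 8 members was 70.2 ± 10.8 FPKM with miR-204-5p and 70.7 ± 9.62 FPKM with miR-NC. The GSTP1 to GSTO1 ratio was 2.91, 3.22 and 2.42 in miR-204-5p replicates 1 to 3, against 2.82, 3.35 and 3.00 in miR-NC replicates 1 to 3. These sums and ratios also overlapped between the groups.

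**Figure D2:**
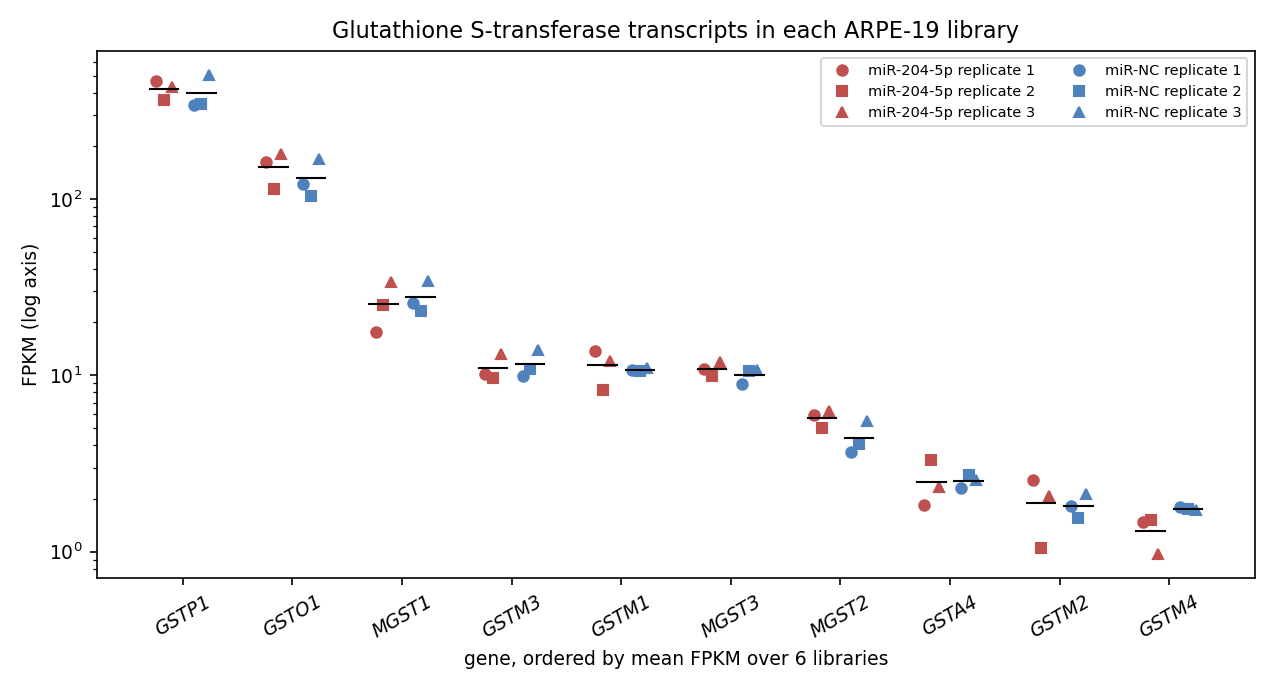
FPKM of each member in every library on a log axis, with miR-204-5p left of miR-NC within each gene, symbols for the replicate number and a bar at each group mean. The values of GSTM4 are the only ones in which the groups do not overlap, with 0.975 to 1.50 FPKM in miR-204-5p libraries below 1.72 to 1.80 FPKM in miR-NC libraries.

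GSTM4 (chr1:109656081-109674836, plus strand), a mu-class enzyme, was the lowest member in level and the only one whose groups did not overlap. It stood at 1.47, 1.50 and 0.975 FPKM in miR-204-5p replicates 1 to 3, against 1.80, 1.74 and 1.72 FPKM in miR-NC replicates 1 to 3. Every miR-204-5p library was thus below the lowest miR-NC library, also with median-of-ratios and with quantile scaling. This 1 of 10 members without overlap stands beside 5.95% of all tested genes, with 2.17% lower and 3.77% higher in miR-204-5p. It had a log2 fold change of -0.26 (95% limits -0.64 to 0.12, limma adjusted p = 1.00). A two-sided exact permutation test gave p = 0.1, and groups of 3 allow no smaller value. Groups of 3 without overlap always give this p, so it adds nothing to the lack of overlap. Without miR-204-5p replicate 3 the log2 fold change was -0.15, and with a pseudocount of 0.1 in place of 1 it was -0.41. That library is the one with 361 FPKM of RN7SK, whose part in the value of GSTM4 was not tested. At the depth of that library, 0.975 FPKM of a transcript of 1412 bases corresponds to about 26.2 read pairs.

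GSTM1 (chr1:109687814-109709039) and GSTM2 (chr1:109668022-109709551), on the plus strand as GSTM4 is, had group means that nearly coincided. The annotated span of GSTM2 encloses that of GSTM1 and overlaps that of GSTM4. GSTM1 conjugates epoxides and aldehydes and also binds the stress kinase MAP3K5. GSTM1 stood at 13.8, 8.30 and 12.1 FPKM in miR-204-5p replicates 1 to 3, against 10.7, 10.6 and 11.0 FPKM in miR-NC replicates 1 to 3. The miR-204-5p values lay on either side of the narrow miR-NC range. For GSTM1 the log2 fold change was 0.05 (95% limits -0.44 to 0.54), with 0.24 when miR-204-5p replicate 2 was left out, -0.092 when replicate 1 of that group was, and -0.0067 when its replicate 3 was. GSTM2, which also acts on quinones formed from dopamine, stood at 2.54, 1.05 and 2.06 FPKM in miR-204-5p replicates 1 to 3, against 1.81, 1.55 and 2.12 FPKM in miR-NC replicates 1 to 3. Replicate 1 of miR-204-5p was above the miR-NC range, replicate 2 below it and replicate 3 within it. For GSTM2 it was -0.0037 (95% limits -0.56 to 0.56), with -0.17 when miR-204-5p replicate 1 was left out and 0.22 when its replicate 2 was, and it was positive with both other scalings.

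The values of GSTM1 and GSTM2, and through a long isoform also that of GSTM4, are uncertain because mu-class genes share sequence. Coding sequences of 657 bases were 90.0% identical between GSTM1 and GSTM2, 92.1% between GSTM1 and GSTM4 and 89.0% between GSTM2 and GSTM4, whereas GSTM3 (678 coding bases) was 72.1% to 74.9% identical to these. The principal transcripts of GSTM1 and GSTM2 share an exact run of 479 bases, from the last coding bases to the end of the 3' UTR. Windows of 150 bases, the length of a read, were searched in the transcripts of other genes on either strand. Of all windows 38.8% in the principal transcript of GSTM1 and 55.4% in that of GSTM2 also occurred there. Of the 1012 windows of GSTM1, 330 occurred on the same strand in a transcript of GSTM2. The other matching gene, AC000032.1, held no window of GSTM1 on the same strand, so 38.8% overstates what strand-marked reads share. For the principal transcript of GSTM4 no shared window was found on either strand. A long annotated isoform of GSTM4 also runs across the GSTM2 locus and holds 226 windows of GSTM2 at the same genome positions. No source used here says how the authors assigned shared reads.

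A conserved and a variable stretch show where the 3 genes are alike and where they differ. Coding bases 121 to 180 are the same in the 3 genes (GRCh38, plus strand, split over 2 exons), and are given once as they stand in GSTM1.
GSTM1 coding bases 121 to 180: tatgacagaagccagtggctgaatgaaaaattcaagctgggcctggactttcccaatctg
In coding bases 298 to 357 capitals mark the 20 positions at which the 3 genes are not all alike, and GSTM2 differs from GSTM1 at 13 and GSTM4 from GSTM1 at 17.
GSTM1, chr1:109689263-109689322: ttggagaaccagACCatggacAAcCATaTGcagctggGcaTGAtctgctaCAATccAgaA
GSTM2, chr1:109669509-109669568: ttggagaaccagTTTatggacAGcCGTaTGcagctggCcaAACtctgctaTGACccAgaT
GSTM4, chr1:109657810-109657869: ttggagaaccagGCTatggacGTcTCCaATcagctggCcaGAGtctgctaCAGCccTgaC
Across the 6 libraries log2 values of GSTM1 and GSTM2 followed each other (Pearson r = 0.96). Whether the shared run of 479 bases has a part in this was not tested. GSTM4 did not follow GSTM1 (r = -0.30, n = 6 libraries). Both values are descriptions over the same libraries.

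GSTA4 (chr6:52977948-52995378, minus strand), the alpha-class enzyme with high activity toward the lipid aldehyde 4-hydroxynonenal, also overlapped between the groups. It stood at 1.84, 3.29 and 2.33 FPKM in miR-204-5p replicates 1 to 3, against 2.31, 2.73 and 2.55 FPKM in miR-NC replicates 1 to 3. Its highest and lowest values both came from miR-204-5p libraries. GSTA4 had a log2 fold change of -0.04 (95% limits -0.51 to 0.44), with -0.20 when miR-204-5p replicate 2 was left out and 0.10 when its replicate 1 was. Its pattern ran against that of GSTM1 (r = -0.95) and GSTM2 (r = -0.93) over the 6 libraries. These were the most negative correlations of all member pairs, named after the values were seen. They are not separate observations, as GSTM1 and GSTM2 followed each other (r = 0.96).

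Among the membrane enzymes MGST2 (chr4:139665768-139740745, plus strand), which can make leukotriene C4, had the largest positive difference. It stood at 5.98, 4.99 and 6.29 FPKM in miR-204-5p replicates 1 to 3, against 3.69, 4.09 and 5.54 FPKM in miR-NC replicates 1 to 3. Only miR-NC replicate 3 reached into the miR-204-5p range. The means were 5.76 ± 0.68 FPKM with miR-204-5p and 4.44 ± 0.97 FPKM with miR-NC (SD, n = 3 each), and the log2 fold change of 0.32 had 95% limits of -0.14 to 0.78 (limma adjusted p = 1.00, unadjusted p = 0.140). It was 0.22 without miR-NC replicate 1 and 0.46 without miR-NC replicate 3, where the unadjusted p = 0.0477 (limma).

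MGST1 (chr12:16347142-16609259) and MGST3 (chr1:165630861-165661796), both on the plus strand, completed the membrane group. MGST1, which also reduces lipid hydroperoxides, stood at 17.6, 25.1 and 33.8 FPKM in miR-204-5p replicates 1 to 3, against 25.8, 23.2 and 34.1 FPKM in miR-NC replicates 1 to 3. Replicate 3 was the highest of each group, and miR-204-5p replicate 1 the lowest library. MGST1 had a log2 fold change of -0.14 with 95% limits of -0.78 to 0.50, with -0.36 when miR-204-5p replicate 3 was left out, 0.090 when its replicate 1 was, and 0.012 when miR-NC replicate 3 was. MGST3, with glutathione transferase and peroxidase activity, stood at 10.9, 9.88 and 11.9 FPKM in miR-204-5p replicates 1 to 3, against 8.95, 10.5 and 10.7 FPKM in miR-NC replicates 1 to 3. It varied least among the members, with a residual SD of 0.13 on the log2 scale (GSTM4 0.14), where the median over all tested genes was 0.27. Its log2 fold change was 0.10 (95% limits -0.28 to 0.48), with 0.027 when miR-NC replicate 1 was left out, 0.041 when miR-204-5p replicate 3 was, and 0.16 when replicate 2 of that group was.

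**Figure D3:**
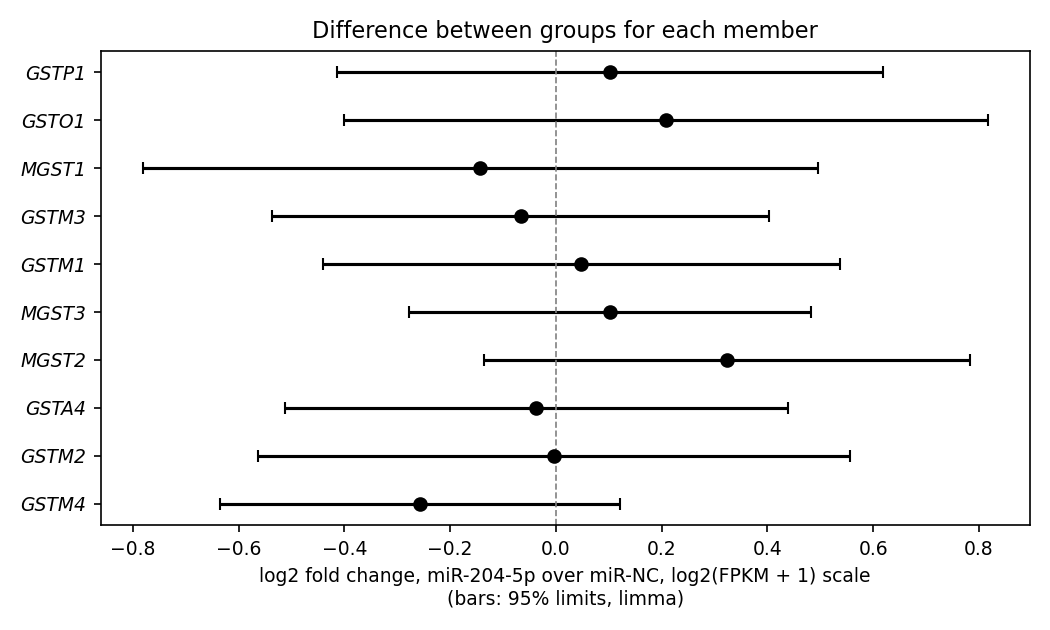
Log2 fold change of each member, miR-204-5p over miR-NC, on the log2(FPKM + 1) scale (points) with 95% limits from limma (bars), ordered by mean level. The limits of all 10 members include 0, and MGST2 (0.32) and GSTM4 (-0.26) lie farthest from it.

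In order of mean FPKM over the 6 libraries the members ran GSTP1 (410), GSTO1 (141), MGST1 (26.6), GSTM3 (11.3), GSTM1 (11.1), MGST3 (10.5), MGST2 (5.10), GSTA4 (2.51), GSTM2 (1.86) and GSTM4 (1.53). GSTP1, GSTO1 and MGST1 stood apart in every library. The ranges of GSTM3, GSTM1 and MGST3 overlapped, so their order is not fixed by these data. MGST2 stood apart from MGST3 above and GSTA4 below it. The ranges of GSTA4 and GSTM2, and of GSTM2 and GSTM4, overlapped.

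Most members followed a difference between libraries that both groups shared. The leading principal component of all tested genes held 54.1% of the variance and did not separate the groups, with miR-204-5p replicates 1, 2 and 3 at -15.3, 29.6 and -41.1, and miR-NC replicates 1, 2 and 3 at 26.1, 33.1 and -32.4. GSTO1 followed it most closely (r = -0.98 over 6 libraries), then GSTP1 (-0.89), MGST2 (-0.84) and GSTM3 (-0.81). Of the 10 members 7 had an r below -0.6, as did 21.0% of all tested genes, which contribute to the component themselves. The sign of the component is arbitrary, and 30.6% of all tested genes had an r above 0.8. Following the component in either direction was thus common over the whole table. GSTM4 (0.61) and GSTA4 (0.50) ran the other way. The cause of the component was not tested. Among 3244 tested genes with a mean of at least 10 FPKM, the patterns most like GSTP1 over the 6 libraries were those of FASTK (r = 0.993), PIH1D1 (0.990) and CBR3, a carbonyl reductase (0.989).

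**Figure D4:**
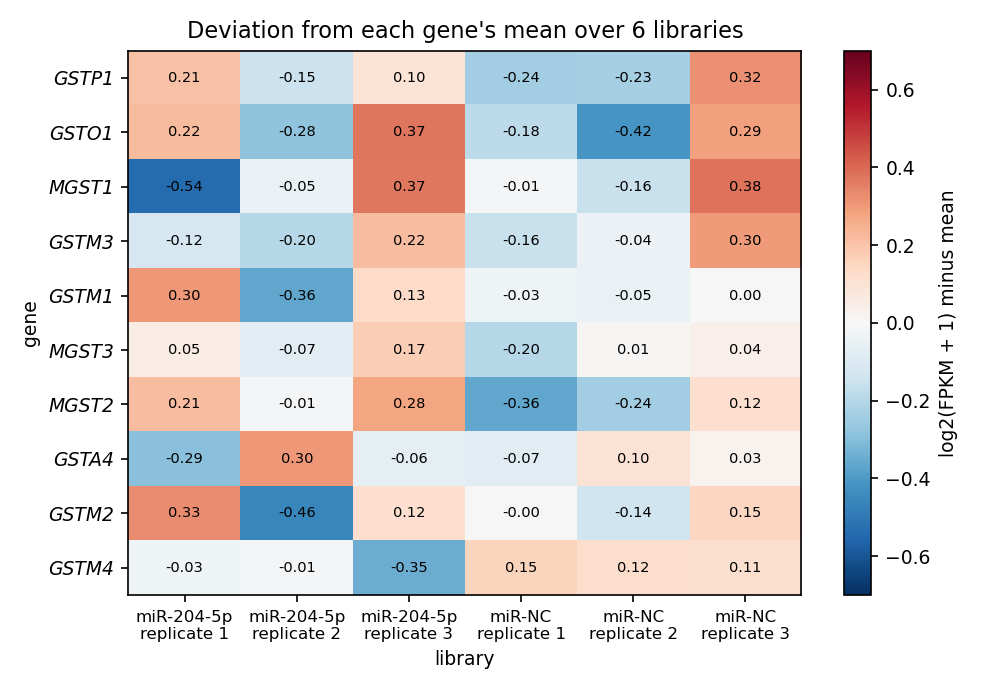
Deviation of log2(FPKM + 1) from each gene's mean over the 6 libraries, with miR-204-5p columns left of miR-NC columns. GSTO1 is above its mean in miR-204-5p replicates 1 and 3 (0.22 and 0.37) and in miR-NC replicate 3 (0.29), and below it in the other libraries of both groups.

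The promoters of GSTP1 and GSTO1 are shown because these were the most abundant members. Their levels varied together (r = 0.89 over 6 libraries), and any part of the promoters in this was not tested. The antioxidant response element, bound by the stress factor NRF2 (NFE2L2), holds the core TGACNNNGC, which was searched on both strands from 250 bases before to 50 after each RefSeq start (GRCh38.p14). Capitals mark it.
GSTP1, chr11:67583562-67583861, plus strand: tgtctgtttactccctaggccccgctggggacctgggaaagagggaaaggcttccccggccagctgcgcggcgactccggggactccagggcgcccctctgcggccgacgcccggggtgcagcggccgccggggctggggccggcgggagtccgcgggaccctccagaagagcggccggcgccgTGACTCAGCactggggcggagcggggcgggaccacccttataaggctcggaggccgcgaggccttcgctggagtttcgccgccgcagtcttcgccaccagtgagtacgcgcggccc
GSTO1, chr10:104254642-104254941, plus strand: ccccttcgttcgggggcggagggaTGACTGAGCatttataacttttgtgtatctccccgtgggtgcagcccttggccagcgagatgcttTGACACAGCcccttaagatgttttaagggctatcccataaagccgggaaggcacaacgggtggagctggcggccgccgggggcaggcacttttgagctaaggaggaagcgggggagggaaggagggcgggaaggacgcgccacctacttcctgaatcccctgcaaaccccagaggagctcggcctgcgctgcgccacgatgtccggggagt
The match of GSTP1 begins 66 bases before the start, and those of GSTO1 begin 226 and 161 bases before it. Of 9 members with a promoter sequence (all but MGST2) 5 held the core, GSTM1, GSTA4 and MGST1 being the others, and MGST1 in 1 of its 3 listed promoters only. Counted in the same way, per gene with the core in any listed promoter, it was held by 19.4% of 9104 tested genes with a promoter. Of all 35116 single promoters of that length 13.3% held it. Such a match does not show that NRF2 binds there.

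Of 18 other transferase and membrane-family genes, 7 were tested, 0 were called (limma) and 0 reached an unadjusted p under 0.05. Their log2 fold changes had a median of -0.01, with 3 positive and 4 negative. GSTT2B, a theta-class enzyme, had the lowest, -0.23. It stood at 7.43, 8.46 and 7.42 FPKM in miR-204-5p replicates 1 to 3, against 9.37, 9.49 and 9.02 FPKM in miR-NC replicates 1 to 3. Its groups did not overlap, as in 5.95% of all tested genes. Its near copy GSTT2 was at most 0.153 FPKM, and reads of the pair may be split between them. GSTO2, the second omega enzyme, had the highest, 0.17. GSTA2, GSTA3, GSTA5 and GSTM5 were listed at 0 in every library, and GSTA1 reached 0.040 FPKM in 1 library. GSTT1 matched no row, so its level is not known here.

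Genes of glutathione supply were tested in 13 of 15 cases, with 0 called, 0 at an unadjusted p under 0.05 (limma), and a median of -0.07. The lowest was GSR, glutathione reductase, at -0.53 (95% limits -1.13 to 0.06), with 10.6, 6.25 and 6.53 FPKM in miR-204-5p replicates 1 to 3, against 13.3, 12.7 and 8.87 FPKM in miR-NC replicates 1 to 3. The highest was SLC3A2, the heavy chain of the cystine importer, at 0.38 (-0.23 to 1.00). Of 14 genes for export of conjugates and their conversion to mercapturates, 7 were tested, with 0 called, 0 at an unadjusted p under 0.05 (limma) and a median of -0.10. They ran from ABCC4, an export pump, at -0.32 to ACY1, an aminoacylase, at 0.25.

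Genes that control NRF2 and its targets outside the family were tested in 18 of 19 cases, with 0 called, a median of -0.05, and 12 negative against 6 positive. They ran from MAFF, a small partner protein of NRF2, at -0.85 (95% limits -2.15 to 0.44) to NFE2L2 at 0.60 (-0.63 to 1.83), and each of these values rested largely on 1 library. MAFF stood at 1.52, 11.0 and 7.63 FPKM in miR-204-5p replicates 1 to 3, against 10.9, 11.8 and 9.003 FPKM in miR-NC replicates 1 to 3, and its log2 fold change was -0.18 when miR-204-5p replicate 1 was left out. NFE2L2 stood at 7.79, 11.9 and 6.18 FPKM in miR-204-5p replicates 1 to 3, against 1.74, 10.3 and 6.61 FPKM in miR-NC replicates 1 to 3, and its log2 fold change was 0.012 when miR-NC replicate 1 was left out. NQO1, a quinone reductase named after its values were seen, was the only one of the 18 with an unadjusted p under 0.05 (0.0375, limma), beside 2.08% of all tested genes. It stood at 138, 141 and 149 FPKM in miR-204-5p replicates 1 to 3, against 171, 185 and 218 FPKM in miR-NC replicates 1 to 3. Its values did not overlap between the groups, as in 5.95% of all tested genes, and its log2 fold change was -0.41 (95% limits -0.79 to -0.03). With single libraries left out the fold change was -0.49 to -0.32 and the unadjusted p was 0.0460 to 0.106 (limma).

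Of 6 proteins that act with GSTP1, GSTM1 or their products, all were tested, 0 were called and 0 reached an unadjusted p under 0.05 (limma), with a median of -0.04. They ran from AKR1B1, which reduces aldehydes and their glutathione conjugates, at -0.32 to TRAF2, a signalling adaptor bound by GSTP1, at 0.41. PRDX6, a peroxiredoxin that GSTP1 reactivates, was named after its values were seen. It stood at 231, 198 and 223 FPKM in miR-204-5p replicates 1 to 3, against 166, 166 and 191 FPKM in miR-NC replicates 1 to 3. Its groups did not overlap, as in 5.95% of all tested genes, and its log2 fold change was 0.32 (-0.06 to 0.69).

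As to the cells themselves, 10 of 16 pigment epithelium markers reached 0.5 FPKM in at least 1 library. KRT18 stood at 194 to 249 FPKM and BEST1 at 3.13 to 7.54 FPKM, while RPE65 was at most 0.029 FPKM and TTR and TYR were listed at 0. EZR, a linker of membrane and cytoskeleton, was named after its values were seen. It stood at 128, 140 and 111 FPKM in miR-204-5p replicates 1 to 3, against 186, 194 and 165 FPKM in miR-NC replicates 1 to 3. Its groups did not overlap, as in 5.95% of all tested genes. Of the markers of all lists that reached 0.5 FPKM, PMEL (lower with miR-204-5p), VIM and TUBB3 (both higher) did not overlap either. PMEL, at 0.164 to 0.620 FPKM over the 6 libraries, was below the filter and is not among the tested genes. TUBB3 stood at 51.5, 48.5 and 49.3 FPKM in miR-204-5p replicates 1 to 3, against 11.7, 40.9 and 39.0 FPKM in miR-NC replicates 1 to 3. The summed level of the pigment epithelium markers was 485 to 563 FPKM with miR-204-5p and 543 to 565 FPKM with miR-NC. Mesenchymal markers reached 0.5 FPKM in 5 of 6 cases, summing to 1505 to 1692 FPKM with miR-204-5p and 1427 to 1473 FPKM with miR-NC, most of it VIM. Photoreceptor and neuron markers reached it in 2 of 8 cases, summing to 49.9 to 52.7 FPKM with miR-204-5p and 12.7 to 41.8 FPKM with miR-NC, most of it TUBB3, with SAG at 0. Glial, endothelial and immune markers reached it in 2 of 6 cases, summing to 4.32 to 6.26 FPKM with miR-204-5p and 3.57 to 4.87 FPKM with miR-NC. Most of that sum is RLBP1 (2.57 to 5.66 FPKM over the 6 libraries), which the pigment epithelium list also holds, and the other that reached it, PTPRC, was at most 0.510 FPKM. The part of these sums in the members' values was not tested. The row of MIR204 itself was listed at 0 in all libraries, and poly(A) libraries do not measure a mature microRNA, so the transfection could not be checked here. In the authors' deposited table, 0 of the 10 members were among the 194 genes marked as changed, their q was 1.0, and their smallest p was 0.364, for GSTM4.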

How the data were processed

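Poly(A) RNA of 6 libraries was sequenced as strand-marked paired reads, per the labels' protocols. The submitters' processing notes name HISAT2 2.0.4, StringTie 1.3.4d, cutadapt 1.9, DESeq2 and edgeR without their roles, and the build GRCh38. No source used here names the annotation or any filter. The authors deposited FPKM per gene and library, in which 0.0001 stands for 0. Beside these the deposited table gave the authors' own fold ratio, log2 fold change, p-value and q-value.

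Values of 0.0001 or less were set to 0. The test was limma 3.58.1 in R 4.3.3, two-sided, with a mean-variance trend and no covariates, on log2(FPKM + 1) of genes that reached 0.5 FPKM in 3 or more libraries, adjusted by Benjamini-Hochberg over 13151 genes. Fold changes on this scale understate the change of low genes. Depth, estimated from the step between low FPKM values scaled by length in genes with 1 transcript, was roughly 19000000 to 23400000 read pairs per library. P-values measure the spread between these libraries.

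The members and lists were chosen with earlier results of these data known. By the rule for named genes, the text names all members, the tested genes of each list with the lowest and highest log2 fold change, any called gene, and the 3 genes whose pattern was most like that of the most abundant member. Alternatives were a pseudocount of 0.1, other filters, other scalings, a replicate block and leaving out each library. UTRs, transcripts and shared windows came from GENCODE release 29, and miRNA and promoter sequences from RefSeq, with Python 3.11.15 and biopython 1.88. The limma script was tested on simulated data.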

Additional observations from a re-analysis of the deposited data

How the results depend on the processing

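Members called stayed at 0 under every alternative run, as did the called genes of the 5 pathway lists with the block, median-of-ratios scaling and each library left out, and the smallest adjusted p of a member was 0.661 (limma, with the replicate block). Genes called over the whole table numbered 0 to 3 over the leave-one-out fits (3 when miR-204-5p replicate 2 was dropped), none of them a member or a listed pathway gene. Members at an unadjusted p under 0.05 numbered 0 to 1, the 1 being MGST2 without miR-NC replicate 3. The cause was not tested. Of all tested genes 273 had an unadjusted p under 0.05. With no filter this count was 725 of 29806. It was 753 with miR-204-5p replicate 2 dropped, 163 with replicate 1 of that group dropped, and 601 with miR-NC replicate 3 dropped. Of 120 member values under alternatives 106 kept their sign and 14 changed it, none of them called. With quantile normalization GSTP1 was -0.052, GSTM2 0.047 and GSTA4 0.010, and with median-of-ratios scaling GSTM2 was 0.0098. Leaving out single libraries gave -0.092 to 0.24 for GSTM1 (-0.0067 without miR-204-5p replicate 3), -0.17 to 0.22 for GSTM2 (0.07 without miR-NC replicate 3), and -0.19 to 0.067 for GSTM3 (0.02 without miR-204-5p replicate 2). It gave -0.20 to 0.10 for GSTA4 (0.0046 without miR-NC replicate 2) and -0.36 to 0.090 for MGST1 (0.012 without miR-NC replicate 3). With the replicate block, 0 genes and 0 members were called, 941 genes had an unadjusted p under 0.05 where 273 had one without it, and 0 members did, so it changed no call. Libraries that share a number had deviations from their group means correlated by 0.04 (replicate 1), 0.55 (replicate 2) and 0.52 (replicate 3). Between libraries of unlike numbers, 1 from each group, the correlations ran from -0.61 to 0.32. The values of replicates 2 and 3 lay above that range and the value of replicate 1 within it. Deviations from a mean of 3 libraries constrain each other, so these correlations are not independent and the range is no separate yardstick. The main fit had no block, and whether the libraries were prepared in pairs was not tested. At this depth the lowest values of GSTM2 and GSTM4 rest on about 25.4 and 26.2 read pairs of their libraries. The log2 fold changes of 12 named pathway genes were also refitted with each library left out, an alternative chosen after seeing the data, and none changed sign or was called. Their ranges were widest, relative to the value with all libraries, in MAFF (-1.31 to -0.18), NFE2L2 (0.012 to 1.03), ACY1 (0.068 to 0.40), SLC3A2 (0.16 to 0.58), GSTO2 (0.081 to 0.29), TRAF2 (0.23 to 0.66) and ABCC4 (-0.57 to -0.18). With 3 libraries a group, the 95% limits allow differences in each member that these data cannot show.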
